A study of Mus musculus with 10 samples.

Results

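A set of 9 genes of retinoid biology was followed in 10 H3K4me3 libraries of mouse nEnd cells, the naive extra-embryonic endoderm cultures. They are 4 receptor genes (Rara, Rarb, Rarg and Rxra) and 5 genes of retinoid metabolism and transport (Cyp26a1, Aldh1a2, Crabp2, Stra6 and Dhrs3), chosen by name from the 21755 annotated protein-coding genes used here. A gene was called marked in a library when a deposited peak overlapped the promoter of any of its annotated transcription start sites (TSS), taken as 1000 bp before the site and 100 bp after it. Of the 9 genes, 6 were marked in at least 1 library, and Rarb, Aldh1a2 and Crabp2 were marked in none. For comparison, 53.5% of all the genes were marked in at least 1 library.

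Cells of an OCT4-mCherry reporter embryonic stem cell line, grown as nEnd without further treatment, were sorted by FACS into Oct4+ nEnd (4 libraries), double-positive (DP) nEnd (3) and Pdgfra+ nEnd (3), using the reporter and an APC-labelled antibody against PDGFRA. All populations share the line, the reporter and the culture, and each library was labelled as a replicate. Chromatin carrying H3K4me3, a mark found at active promoters, was tagged by CUT&Tag, in which an antibody directs the Tn5 transposase to the mark. Each library was deposited as a list of peaks with its total signal, which is its summed coverage, and its highest coverage.

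Retinoic acid is made from vitamin A and acts through nuclear receptors. STRA6 takes retinol into the cell, retinol is oxidised to retinaldehyde and then by ALDH1A2 to retinoic acid, and DHRS3 reduces retinaldehyde back to retinol. CRABP2 carries retinoic acid to the nucleus, where it binds RAR proteins paired with RXR proteins on DNA, and CYP26A1 breaks it down. In early embryos, this pathway is known for patterning the body axis and for driving stem cells out of pluripotency.

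The lists held 3477 to 9144 peaks in Oct4+ nEnd, 7575 to 8836 in DP nEnd and 6510 to 10545 in Pdgfra+ nEnd. Coverage was not scaled between libraries and the read depth is unknown, so each peak is described by its percentile, the share of the library's peaks with a value at or below its own, and a library without a promoter peak counts as 0. Oct4+ replicate 3 had the fewest peaks, 3477, and results are given with and without it where it matters. Replicate 4 had 4887 peaks, against 9144 and 8098 in replicates 1 and 2. Pearson correlations of percentiles were 0.920 between replicates 3 and 4 and 0.961 between replicates 1 and 2. Across these pairs they ran from 0.754 to 0.887. The 6 epiblast markers were marked in all 4 Oct4+ libraries, in 5 or 6 per DP library and in 0 to 2 per Pdgfra+ library. The 8 primitive endoderm (PrE) markers were all marked in every DP and Pdgfra+ library and numbered 0 to 6 in Oct4+ libraries. Of 12 fibroblast markers, looked at because the cultures grow on feeder cells, 0 or 1 was marked per library. Over the 10443 genes tested, the median difference in total signal percentile was -9.40 points for Oct4+ minus Pdgfra+ nEnd and -9.32 points for Oct4+ minus DP nEnd, so that differences below are read against those shifts.

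Sequences upstream of 4 of the genes are given here to show the windows that peaks covered in some populations, in all or in none. They are RefSeq promoter sequences of GRCm38.p6, and 8 of the 9 genes had a RefSeq window, all but Crabp2. Of the Rarg windows, both are shown because the upstream one was covered by a peak in 3 of 4 Oct4+ libraries and in no DP or Pdgfra+ library, and the downstream one in all 10 libraries. Aldh1a2 is shown because its window of 300 bases held 50 CG dinucleotides, which ranks at the 99.2 percentile of 32851 windows, and no library covered it. Of each window, the 250 bases before the start site are printed, and for Aldh1a2 these hold 40 of the 50. Capitals mark CG dinucleotides in these 3 sequences.

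Rarg upstream promoter, chr15:102257523-102257772, minus strand: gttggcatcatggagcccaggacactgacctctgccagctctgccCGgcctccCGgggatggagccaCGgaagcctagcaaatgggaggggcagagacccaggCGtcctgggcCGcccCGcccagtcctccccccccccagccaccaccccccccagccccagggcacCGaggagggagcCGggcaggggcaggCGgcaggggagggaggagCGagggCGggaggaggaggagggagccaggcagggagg

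Rarg downstream promoter, chr15:102246501-102246750, minus strand: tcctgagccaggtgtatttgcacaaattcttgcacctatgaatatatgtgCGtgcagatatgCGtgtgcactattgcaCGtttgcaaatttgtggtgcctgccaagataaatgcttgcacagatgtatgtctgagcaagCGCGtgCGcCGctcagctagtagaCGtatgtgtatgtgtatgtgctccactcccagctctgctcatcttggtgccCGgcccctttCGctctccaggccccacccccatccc

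Aldh1a2 promoter, chr9:71215539-71215788, plus strand: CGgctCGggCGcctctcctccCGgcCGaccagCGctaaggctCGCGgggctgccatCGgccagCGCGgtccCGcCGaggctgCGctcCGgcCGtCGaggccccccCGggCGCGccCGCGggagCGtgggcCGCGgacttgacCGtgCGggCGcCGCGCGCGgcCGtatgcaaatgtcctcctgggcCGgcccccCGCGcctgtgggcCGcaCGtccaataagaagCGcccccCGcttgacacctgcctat

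The receptors bind DNA at pairs of half-sites. The windows were searched on both strands for a direct repeat of half-sites 1, 2 or 5 bases apart, where a half-site was AGGTCA or a variant of it with T at the third base (AGTTCA) or G at the first (GGGTCA) or both changes (GGTTCA). Among the 18 windows of the 8 genes, Cyp26a1 and Rarb each held 1 repeat with a 5-base spacer and no window held a repeat with the other spacers. Over all 32851 windows, 0.0974% held a repeat with a 5-base spacer. Capitals mark the half-sites below, and the Rarb stretch is kept to 30 bases.

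Cyp26a1 promoter, chr19:37697558-37697797, plus strand: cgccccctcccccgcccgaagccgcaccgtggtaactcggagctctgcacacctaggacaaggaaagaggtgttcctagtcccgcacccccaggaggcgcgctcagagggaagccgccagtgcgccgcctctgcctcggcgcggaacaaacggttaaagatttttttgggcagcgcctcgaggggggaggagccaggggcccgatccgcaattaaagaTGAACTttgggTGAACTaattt

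Rarb promoter, chr14:16575506-16575535, minus strand: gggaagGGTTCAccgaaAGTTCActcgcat

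The Cyp26a1 window was covered in all 6 DP and Pdgfra+ libraries and in no Oct4+ library, and the Rarb window was covered in none. A match to these letters is a description of the sequence.

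**Figure D1:**
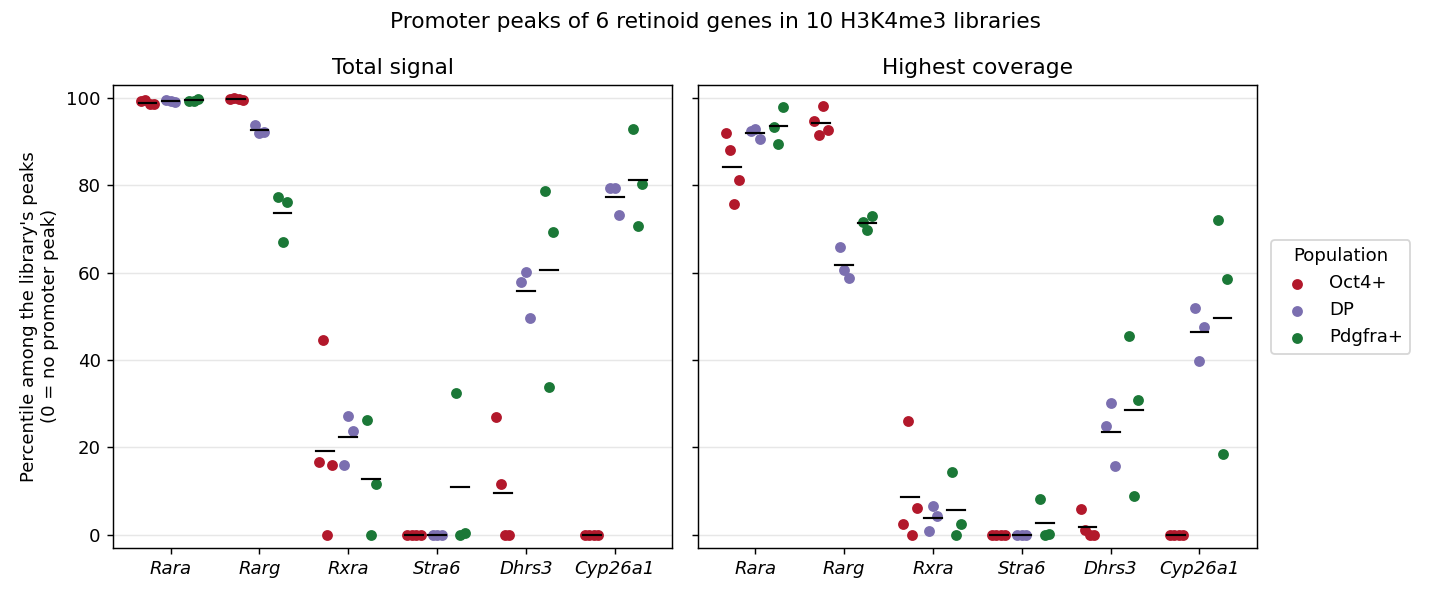
Percentile of the promoter peak of 6 retinoid genes among its library's peaks, by total signal (left) and by highest coverage (right), with 1 point per library, a bar at the population mean and 0 where there was no promoter peak. Rara stays near the top by total signal and is lower by highest coverage, down to 75.7 in Oct4+ replicate 3, Rarg is highest in the 4 Oct4+ libraries, and Cyp26a1 is at 0 in all of these.

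Among the receptors, Rarg differed between the populations. It encodes RARγ, a nuclear receptor for retinoic acid, and lies on the minus strand at chr15:102234938-102257517 with 7 TSS. By total signal, its promoter peak stood at percentiles 99.8, 99.9, 99.9 and 99.6 in Oct4+ replicates 1 to 4. It stood at 93.8, 92.1 and 92.2 in DP nEnd and at 77.4, 67.0 and 76.3 in Pdgfra+ nEnd. The 3 populations did not overlap, with Oct4+ nEnd highest and Pdgfra+ nEnd lowest. Values free of overlap in the same direction were found for 5.14% of the genes tested between Oct4+ and Pdgfra+ nEnd, 4.69% between Oct4+ and DP nEnd and 2.99% between DP and Pdgfra+ nEnd. In Oct4+ nEnd the peak was the 5th to 19th of its library, at ranks 17, 8, 5 and 19.

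The mean was 99.8 ± 0.127 (SD, n = 4) in Oct4+, 92.7 ± 0.972 (n = 3) in DP and 73.6 ± 5.70 (n = 3) in Pdgfra+ nEnd. Oct4+ nEnd exceeded Pdgfra+ nEnd by 26.2 points (SE 3.34, limma adjusted p = 9.0e-05, exact permutation p = 0.0286, the smallest these libraries allow). In that comparison 4.18% of the genes tested were called higher in Oct4+ and 13.5% higher in Pdgfra+ nEnd, and 3 of the 9 members were called, Rarg in the first direction and Cyp26a1, which had no peak in Oct4+ nEnd, and Dhrs3 in the second. With equal numbers of peaks per library, the Rarg difference was 60.8 points. Oct4+ nEnd exceeded DP nEnd by 7.12 points, which limma did not call (adjusted p = 0.178, with 1.64% of genes called higher in Oct4+ nEnd). It called that difference with equal numbers of peaks (16.9 points, adjusted p = 0.00495), on the log2 signal scale (1.72, adjusted p = 1.5e-06) and without Pdgfra+ replicate 2 (adjusted p = 0.0488). These were 3 of 19 alternatives, with limma adjusted p up to 0.422 in those without a call. DP nEnd exceeded Pdgfra+ nEnd by 19.1 points, just short of the threshold (adjusted p = 0.0541), and without Oct4+ replicate 3 the same difference passed it (adjusted p = 0.0485, with 0.105% of genes called higher in DP nEnd). It also passed without Pdgfra+ replicate 1 or 2 (0.0176 and 0.0259), with equal numbers of peaks (43.9 points, adjusted p = 0.000278) and without the 20% lowest peaks (23.9 points, adjusted p = 0.0391). These were 5 of 19 alternatives. Those without a call, with limma adjusted p up to 0.416, included the log2 signal scale and limma without trend and robust. In that comparison 0.0766% of genes were called higher in DP and 0.0% higher in Pdgfra+ nEnd. No member was called there by limma, and Rarg was the 1 member with an unadjusted p under 0.05.

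By highest coverage, the order was different. The Rarg peak stood at percentiles 94.8, 91.4, 98.2 and 92.7 in Oct4+ nEnd, 65.9, 60.6 and 58.7 in DP nEnd and 71.5, 69.7 and 72.9 in Pdgfra+ nEnd. Oct4+ nEnd was again above both, but DP nEnd was the lowest, with no overlap between any of the populations. The share of genes free of overlap was 4.17% for Oct4+ above Pdgfra+, 4.52% for Oct4+ above DP and 3.24% for Pdgfra+ above DP nEnd. Oct4+ nEnd exceeded DP nEnd by 32.5 points (SE 7.57, adjusted p = 0.0238), where 0.852% of genes were called higher in Oct4+ nEnd and Rarg was the 1 member called. This call was lost without any 1 DP library (adjusted p = 0.0953, 0.13 and 0.114) and without Oct4+ replicate 4 (0.0957), and with equal numbers of peaks the difference was 67.3 points. Oct4+ nEnd exceeded Pdgfra+ nEnd by 22.9 points (adjusted p = 0.0732). This passed the threshold with equal numbers of peaks (50.4 points, adjusted p = 0.00333), on the log2 signal scale (0.58, adjusted p = 0.0107) and in limma without trend and robust (adjusted p = 0.0207). These were 3 of 19 alternatives, with limma adjusted p up to 0.198 in those without a call. DP nEnd differed from Pdgfra+ nEnd by -9.63 points (95% interval -26.7 to 7.48, adjusted p = 1).

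The peak was also wide. Its width was 13371, 15018, 13701 and 14247 bp in Oct4+ nEnd and 13523, 12617 and 12586 bp in DP nEnd. In Pdgfra+ nEnd it was 4980, 2772 and 3687 bp, below every width in the other populations. Widths free of overlap in these directions were found for 5.18% of genes between Oct4+ and Pdgfra+ nEnd and for 13.6% between DP and Pdgfra+ nEnd. On the log2(width + 100 bp) scale Oct4+ nEnd exceeded Pdgfra+ nEnd by 1.90 (SE 0.301, adjusted p = 0.00686, with 1.7% of genes called wider in Oct4+ nEnd), and the call was lost without Pdgfra+ replicate 3 (adjusted p = 0.061). DP nEnd exceeded Pdgfra+ nEnd by 1.77 (adjusted p = 0.0369, with 0.211% of genes called wider in DP nEnd). That call was lost without any 1 DP library (adjusted p from 0.179 to 0.325), without Oct4+ replicate 2, 3 or 4 (0.0666, 0.0747 and 0.0954), without Pdgfra+ replicate 3 (0.258) and in limma without trend and robust (0.122). The 3616 genes marked in all 10 libraries were compared by width. In 0.277% of them, Rarg included, the narrowest Oct4+ or DP peak was over 2 times as wide as the widest Pdgfra+ peak. By a broader criterion, a mean log2 width higher by 1.5 or more in Oct4+ than in Pdgfra+ nEnd, the share was 1.36%, Rarg again included. The median width of all peaks was 2204.5, 3032.5 and 3786 bp in the Pdgfra+ libraries, 3437 to 4121 bp in Oct4+ and 3581 to 4222.5 bp in DP nEnd. The populations overlapped in it, with the 2 lowest libraries both Pdgfra+, and its part in the Rarg width was not tested.

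The peaks differed in which TSS they held. Of the 3 most downstream TSS of Rarg, the one at 102246500 lay inside a peak in all 10 libraries. The one at 102245231 lay inside a peak in all Oct4+ and DP libraries and in 1 of 3 Pdgfra+ libraries, and the one at 102243589 in all Oct4+ and DP libraries and in 0 of 3 Pdgfra+ libraries. Of the middle pair, 102250346 lay inside a peak in 4 of 4 Oct4+, 3 of 3 DP and 0 of 3 Pdgfra+ libraries, and 102252640 in Oct4+ replicate 2 alone. The upstream pair (102257349 and 102257517), where the first printed Rarg sequence lies, had a peak of its own in Oct4+ replicates 1, 2 and 4. This peak was at total signal percentiles 39.5, 20.8 and 15.6, so it was modest beside the main one. Oct4+ replicate 3 and the 6 DP and Pdgfra+ libraries had none there.

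**Figure D2:**
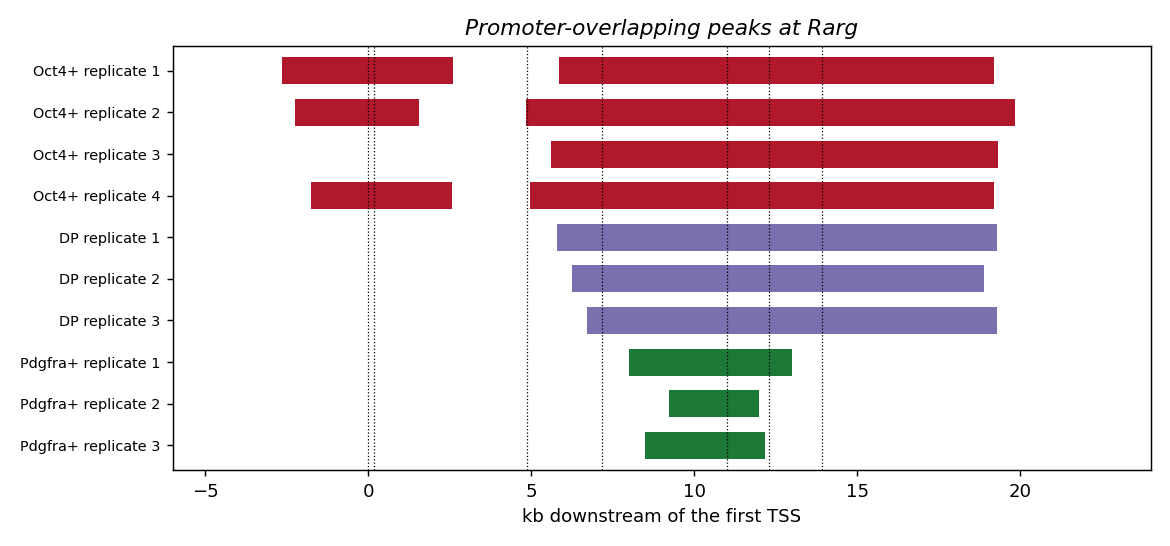
Extent of the peaks that overlap a Rarg promoter in each of the 10 libraries, in kb downstream of the first TSS, with dotted lines at the 7 TSS. The main peak spans 12586 to 15018 bp in the Oct4+ and DP libraries and 2772 to 4980 bp in the Pdgfra+ libraries, and 3 Oct4+ libraries have a second peak at the first TSS pair.

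Rara, which encodes the receptor RARα, was marked in all 10 libraries. The gene lies at chr11:98927818-98974942 on the plus strand, with 7 TSS. Its highest peak, at the TSS at 98960412, stood at percentiles 99.4, 99.4, 98.5 and 98.5 in Oct4+ nEnd, 99.5, 99.3 and 99.1 in DP nEnd and 99.4, 99.3 and 99.7 in Pdgfra+ nEnd. The populations overlapped, and Oct4+ minus Pdgfra+ nEnd was -0.49 points (95% interval -4.30 to 3.32, adjusted p = 0.863). These percentiles lie near the top of the scale and leave little room for a difference. On the log2 signal scale, Oct4+ nEnd exceeded Pdgfra+ nEnd by 0.24 (adjusted p = 0.232) and DP nEnd by 0.34 (adjusted p = 0.106), neither called. By highest coverage the Rara peak stood at 92.0, 88.2, 75.7 and 81.3 in Oct4+ nEnd, 92.5, 92.8 and 90.5 in DP nEnd and 93.4, 89.4 and 98.1 in Pdgfra+ nEnd. The populations overlapped, and the differences of Oct4+ nEnd from Pdgfra+ nEnd (-9.32 points, adjusted p = 0.28) and from DP nEnd (-7.66 points, adjusted p = 0.432) were not called. Its width was 8339 to 9624 bp in Oct4+, 8817 to 10198 bp in DP and 5526 to 6712 bp in Pdgfra+ nEnd. The Pdgfra+ widths were below all others, as they were for 5.18% of genes against Oct4+ and 13.6% against DP nEnd. Limma did not call the difference from Oct4+ nEnd (0.54 on the log2 scale, adjusted p = 0.361) or from DP nEnd (0.64, adjusted p = 0.788), but called both with equal numbers of peaks (adjusted p = 0.0128 and 0.0478).

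A second Rara peak, at the group of TSS from 98937698 to 98939712, was also present in all 10 libraries. Its total signal percentile was 57.7, 59.3, 14.8 and 29.6 in Oct4+ nEnd. It was 87.0, 86.3 and 67.2 in DP nEnd and 90.5, 79.3 and 84.5 in Pdgfra+ nEnd. All 4 Oct4+ libraries lay below the other 6, with the 2 lowest values in the libraries with the fewest peaks, replicates 3 and 4, and the difference was not tested. Such an order is common, since for the highest promoter peak of each gene it was found in 21.0% of genes for Pdgfra+ and 26.0% for DP above Oct4+ nEnd. The first Rara TSS, at 98927818, had no peak in any library.

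**Figure D3:**
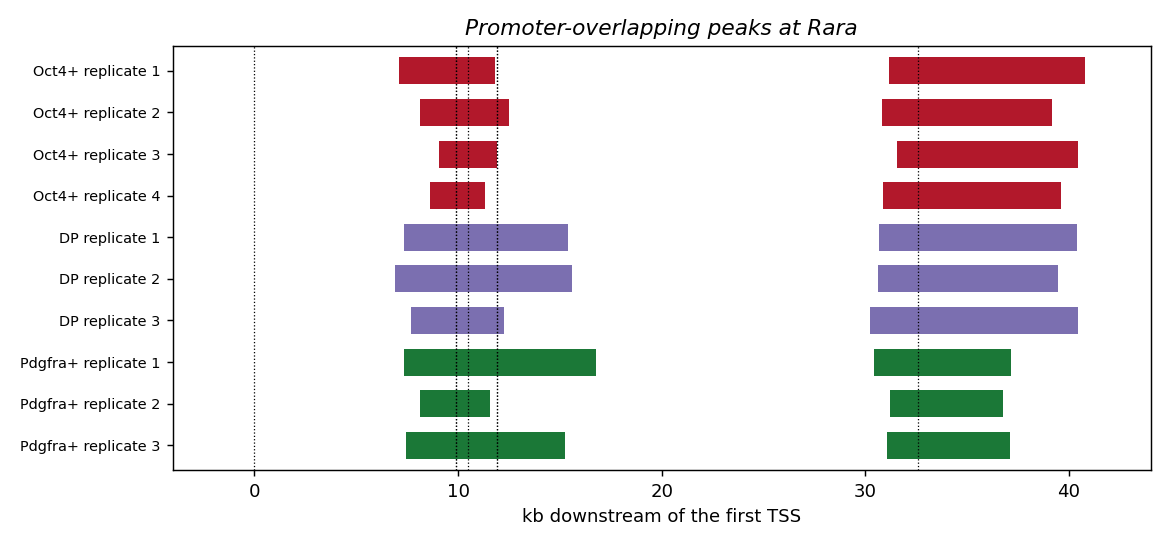
Extent of the peaks that overlap a Rara promoter in each of the 10 libraries, in kb downstream of the first TSS, with dotted lines at the 7 TSS. Both peaks are present in all 10 libraries, and the downstream one is 5526 to 6712 bp wide in the Pdgfra+ libraries and at least 8339 bp wide in the others.

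Rxra, which encodes RXRα, the partner of the RAR proteins, had a weak promoter peak. It was marked in 3 of 4 Oct4+, 3 of 3 DP and 2 of 3 Pdgfra+ libraries, at the first of 3 groups of TSS (chr2:27676440-27762957, plus strand). Its total signal percentile was 16.6, 44.5 and 15.8 in Oct4+ replicates 1, 2 and 4, 16.0, 27.1 and 23.7 in DP nEnd and 26.3 and 11.6 in Pdgfra+ replicates 1 and 3. Oct4+ replicate 3 and Pdgfra+ replicate 2 had no peak. The populations overlapped in total signal. The widths were 4387 to 4694 bp in the 3 marked Oct4+ libraries, 5835 to 6639 bp in DP nEnd and 3189 to 3823 bp in the 2 marked Pdgfra+ libraries, so DP nEnd lay above both. Widths free of overlap in these directions were found for 16.9% of genes between DP and Oct4+ nEnd and for 13.6% between DP and Pdgfra+ nEnd, with a library without a peak at 0 bp. Limma called no difference for Rxra in any pair or measure (adjusted p from 0.507 to 1). The peak contained the RefSeq window with 55 CG dinucleotides, at the 99.8 percentile of windows.

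Rarb, which encodes RARβ and is itself a well-known target of retinoic acid, had no promoter peak in any library (chr14:16430839-16819156, minus strand). The nearest peak lay 207226 to 1449141 bp from its TSS. Its printed repeat was therefore outside every peak. A gene without a peak can still carry signal below the level of the lists, whose weakest peaks had a total signal of 15732 to 53198 depending on the library.

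Among the metabolism genes, Cyp26a1, which encodes the enzyme that clears retinoic acid, had a promoter peak in DP and Pdgfra+ nEnd alone. The gene lies at chr19:37697798-37701536, plus strand. It was marked in 0 of 4 Oct4+, 3 of 3 DP and 3 of 3 Pdgfra+ libraries. Its total signal percentile was 79.4, 79.3 and 73.1 in DP nEnd and 93.0, 70.7 and 80.2 in Pdgfra+ nEnd. In the 4 Oct4+ libraries the nearest peak was 146456 to 260969 bp away, so all 6 values lay above those of Oct4+ nEnd and the DP and Pdgfra+ values overlapped. Values above those of Oct4+ nEnd without overlap were found for 21.0% of genes in Pdgfra+ nEnd and 26.0% in DP nEnd.

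Oct4+ minus Pdgfra+ nEnd was -81.3 points and Oct4+ minus DP nEnd was -77.3 points, and with equal numbers of peaks the differences were -59.9 and -46.9 points. All 4 Oct4+ values are a 0 that stands for an absent peak, and the gene entered the test only through the DP and Pdgfra+ libraries. Its limma calls therefore restate presence against absence and are given no p here. In the second comparison 8.23% of genes were called higher in DP nEnd, and Cyp26a1 and Dhrs3 were the 2 members called. DP and Pdgfra+ nEnd differed by -4.02 points (95% interval -28.99 to 20.95, adjusted p = 1). A peak in every Pdgfra+ library and in no Oct4+ library was found for 2.99% of the genes tested, and in every DP library and no Oct4+ library for 4.05%, that is 312 and 423 genes. Fisher's exact test of presence gave p = 0.0286 for each, the smallest these libraries allow. After adjustment over 10443 genes this smallest p became 0.765 and 0.639. No gene could therefore pass the threshold, and the adjusted test cannot decide whether presence differed.

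By highest coverage the Cyp26a1 peak was weaker. It stood at 51.8, 39.9 and 47.6 in DP nEnd and at 72.0, 18.5 and 58.5 in Pdgfra+ nEnd, so Pdgfra+ replicate 2 was the lowest of the 6. Oct4+ minus Pdgfra+ nEnd was -49.7 points and Oct4+ minus DP nEnd was -46.4 points, which shrank to -15.4 and -8.25 points with equal numbers of peaks. Limma called 6.14% of genes higher in Pdgfra+ than in Oct4+ nEnd by highest coverage, Cyp26a1 among them, again against values of 0 for absent peaks. That call was lost without Oct4+ replicate 4, Pdgfra+ replicate 1 or Pdgfra+ replicate 3, and is given no p for the same reason. The peaks were 7042, 7481 and 5807 bp wide in DP nEnd and 7537, 3855 and 5649 bp in Pdgfra+ nEnd, wider than at least 90.1% of their library's peaks, and they covered 71.0% to 100% of the gene body. Oct4+ nEnd had no Cyp26a1 peak, so widths could not be compared with it. The genes with total signal percentiles most like those of Cyp26a1 over the 10 libraries were Krt8, Atf3, Frzb, Rhpn2 and Mpp2, with a mean absolute difference of 2.23 to 2.81 points.

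Dhrs3, which encodes the enzyme that returns retinaldehyde to retinol, was lower in Oct4+ nEnd (chr4:144892827-144928209, plus strand). It was marked in Oct4+ replicates 1 and 2, at total signal percentiles 27.0 and 11.5, and not in replicates 3 and 4. Of the 8 PrE markers, 6 and 4 were marked in Oct4+ replicates 1 and 2 against 1 and 0 in replicates 3 and 4, at summed percentiles of 150.6, 54.7, 12.3 and 0 beside 736.2 to 791.7 in DP and Pdgfra+ libraries. The first pair also had more peaks, 9144 and 8098 against 3477 and 4887, and the part of either in the Dhrs3 values was not tested. The values were 57.8, 60.1 and 49.7 in DP nEnd and 78.7, 33.9 and 69.2 in Pdgfra+ nEnd, all above the Oct4+ values. Such an order is common, at 21.0% of genes tested for Pdgfra+ and 26.0% for DP above Oct4+ nEnd. Oct4+ minus Pdgfra+ nEnd was -51.0 points (SE 12.9, adjusted p = 0.0132) and Oct4+ minus DP nEnd was -46.3 points (SE 12.9, adjusted p = 0.0333). The Oct4+ mean holds values of 0 for the absent peaks of replicates 3 and 4. In these comparisons 13.5% of genes were called higher in Pdgfra+ nEnd and 8.23% higher in DP nEnd. By highest coverage, neither difference of Dhrs3 was called (-26.7 points, adjusted p = 0.106, and -21.8 points, adjusted p = 0.233), though the first was without Pdgfra+ replicate 2 (-36.5 points, adjusted p = 0.0239).

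Without Oct4+ replicate 3 the Dhrs3 differences were -47.8 (adjusted p = 0.0178, with 11.2% of genes called higher in Pdgfra+ nEnd) and -43.0 points (adjusted p = 0.0446, with 6.82% called higher in DP nEnd). The first Dhrs3 call was lost without Pdgfra+ replicate 1 or 3 (adjusted p = 0.07 and 0.0703). The second was lost without any 1 DP library (0.142, 0.158 and 0.0943), without Oct4+ replicate 4 (0.0982) and without Pdgfra+ replicate 3 (0.0533). With equal numbers of peaks per library, the first difference was -22.2 points (adjusted p = 0.0283) and the second -0.48 points (adjusted p = 0.985).

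**Figure D4:**
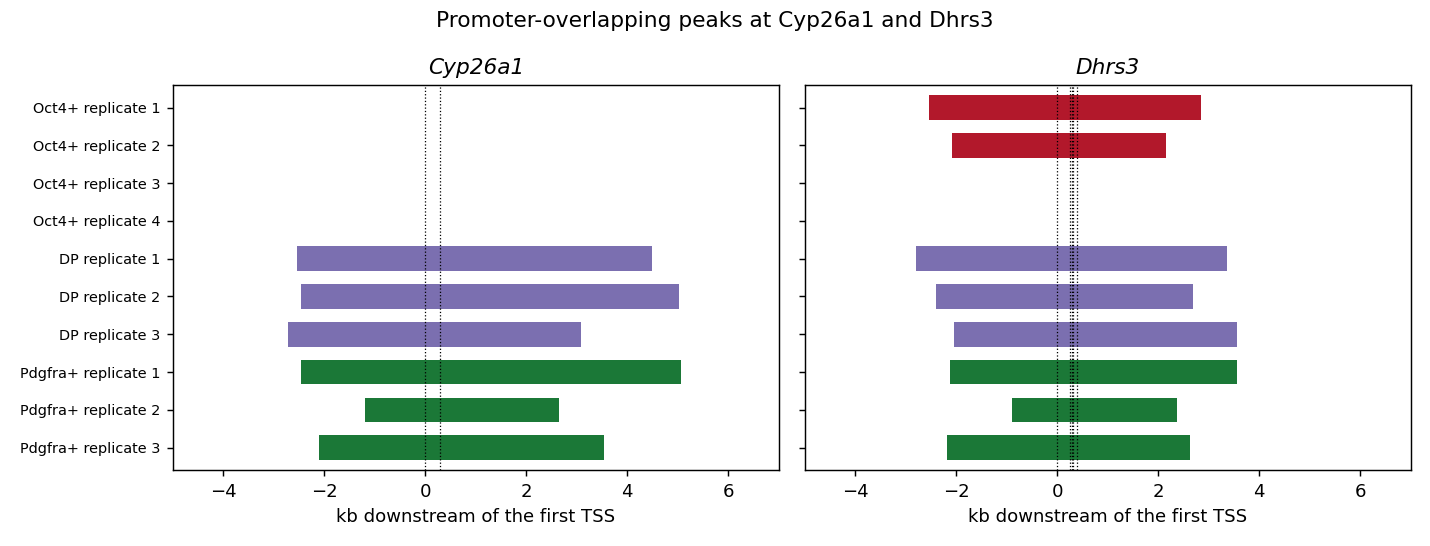
Extent of the peaks that overlap a promoter of Cyp26a1 (left) and Dhrs3 (right) in each of the 10 libraries, in kb downstream of the first TSS, with dotted lines at the TSS. Cyp26a1 has a peak in the 6 DP and Pdgfra+ libraries and in none of the 4 Oct4+ libraries, and Dhrs3 has one in these 6 and in Oct4+ replicates 1 and 2.

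Stra6, which encodes the retinol receptor, had a peak in Pdgfra+ replicates 1 and 3 alone (chr9:58063788-58153996, plus strand). Its total signal percentile was 32.4 and 0.462, the latter near the bottom of the list. Limma did not call it. Stra6 entered the test only through these Pdgfra+ libraries, against values of 0 for absent peaks, so no p is given. The peaks lay over downstream TSS. They covered the RefSeq windows at 58133825 and 58134415 and left those at 58128838 and 58129099 uncovered. Aldh1a2, which encodes the enzyme that makes retinoic acid (chr9:71215789-71296243), had no promoter peak in any library, the nearest being 267641 to 671736 bp away. Crabp2, which encodes a carrier of retinoic acid (chr3:87948666-87953376), had none either, with the nearest 6307 to 17412 bp away.

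The deposited consensus lists, 1 per population, gave a promoter peak to 4 members in Oct4+ nEnd (Rara, Rarg, Rxra and Dhrs3), 5 in DP nEnd (the same with Cyp26a1) and 6 in Pdgfra+ nEnd (with Stra6 as well). Over all genes the shares were 39.8%, 42.4% and 40.8%. Rarg had 2 consensus peaks in Oct4+ nEnd, 15018 and 5249 bp wide, and 1 each in DP and Pdgfra+ nEnd, 13523 and 4980 bp wide.

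Of 49 other genes of the pathway, 32 were marked in at least 1 library (65.3%) and 17 in none. Over all genes, 53.5% were marked in at least 1 library. By role, the marked genes were 0 of 6 for retinoid transport and storage, 0 of 2 for retinoic acid binding, 4 of 8 for retinoic acid synthesis, 1 of 2 for its breakdown and 1 of 2 other receptors. They were 8 of 9 RXR partner receptors, 8 of 8 receptor coregulators and 10 of 12 response genes, and these shares were not tested. By total signal, 30 of the 49 could be tested and 8 were called for Oct4+ against Pdgfra+ nEnd, 2 higher in Oct4+ and 6 higher in Pdgfra+ nEnd, beside 4.18% and 13.5% of all genes tested. The median difference of the 30 was -7.66 points, beside -9.40 points for all genes. For Oct4+ against DP nEnd 6 were called, 1 higher in Oct4+ and 5 higher in DP nEnd, beside 1.64% and 8.23% of all genes, and for DP against Pdgfra+ nEnd limma called 0, with 1 at an unadjusted p under 0.05.

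The largest difference among them was that of Zfp703, a retinoic acid response gene. Its mean percentiles were 5.12 in Oct4+, 89.8 in DP and 95.8 in Pdgfra+ nEnd (Oct4+ minus Pdgfra+ -90.7 points). Nrip1, a corepressor of nuclear receptors, was lower in Oct4+ than in Pdgfra+ nEnd by -58.4 points (adjusted p = 0.0130). Meis1, a homeobox gene, was lower by -52.7 points, and Nr2f2, an orphan nuclear receptor gene, by -49.0 points (adjusted p = 0.0127 for Nr2f2). Nr4a1, a nuclear receptor that pairs with RXR, went the other way, at 46.1 points higher in Oct4+ nEnd (adjusted p = 0.0138), as did Meis2 at 33.2 points (adjusted p = 0.0436). Nr4a1 had a peak in 1 of 3 Pdgfra+ libraries, so its Pdgfra+ mean of 8.26 holds values of 0 for absent peaks. Of the 4 Oct4+ libraries, 1 had a peak at Zfp703, 2 at Nrip1, 1 at Meis1 and 2 at Nr2f2, so that their Oct4+ means hold values of 0 for absent peaks. Zfp703 and Meis1 entered the test only through the DP and Pdgfra+ libraries. Their calls largely restate presence against absence and are given no p here. Rdh10, the enzyme that oxidises retinol to retinaldehyde, was marked in all 10 libraries and lay lower in Oct4+ nEnd by -9.75 points (adjusted p = 0.0225), close to the median shift of all genes.

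**Figure D5:**
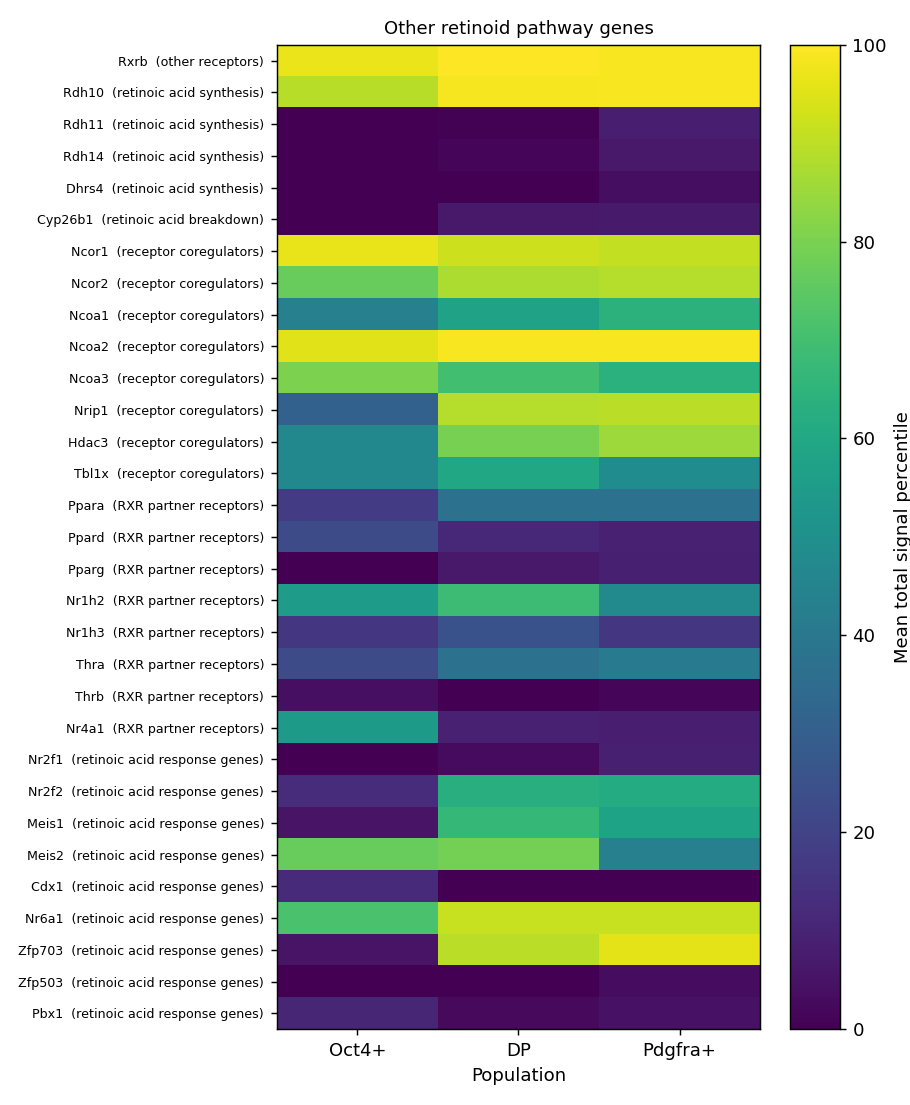
Mean total signal percentile of 31 other retinoid pathway genes in Oct4+, DP and Pdgfra+ nEnd, as a colour scale from 0 to 100, where a library without a promoter peak counts as 0. Zfp703, Nrip1, Meis1 and Nr2f2 are darker in Oct4+ nEnd than in the other populations, and Nr4a1 is lighter.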

How the data were processed

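CUT&Tag for H3K4me3 was performed by the authors on 2500000 sorted cells per replicate. Per the labels, bcl2fastq 2.19.1, Bowtie2, SAMtools 1.12, deepTools, SEACR and bedtools 2.26.0 were among the processing tools and mm10 was the build. The authors computed coverage and called peaks against IgG with SEACR in its stringent mode. The deposited peaks hold signal values, the total signal and the highest coverage, which the authors did not scale between libraries. The deposited consensus lists, made with DiffBind, hold positions and a constant. The positions gave the consensus peaks named above, and the constant, another kind of value, was not used. Depth is unknown, so no counting interval was computed.

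TSS of protein-coding genes came from GENCODE release M21 (GRCm38), 93196 TSS on chromosomes 1 to 19 and X. Peaks were ranked within each library. Populations were compared with limma 3.58.1 (trend and robust) in R 4.3.3 over the 10443 genes marked in at least 2 libraries, all 10 libraries in 1 fit, with Benjamini-Hochberg adjustment over all of these and a threshold of 0.05. Widths were log2(width + 100 bp). Exact two-sided permutation tests and Fisher's exact tests over libraries were run in scipy 1.17.1, and with 3 libraries against 3 they cannot go below 0.10. The study's methods describe replicates in general as biological. For its H3K4me3 profiles the paper names 3 biological replicates, while 4 Oct4+ libraries are used here. Since the labels do not name the culture behind each library, p-values measure the spread between these libraries.

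The fit was tested on simulated data, 10443 genes with 200 shifted. For Oct4+ against Pdgfra+ nEnd it recovered 0% of shifts of 10 points, 6% of 20 points, 14.5% of 30 points, 60.5% of 50 points and 90% of 80 points, so an uncalled difference of 30 points or less says little. The step of 80 points was added, and the range of genes drawn was widened, after a first run of the simulation had recovered fewer. For DP against Pdgfra+ nEnd it recovered 50% of shifts of 50 points.

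The members and gene lists were chosen with earlier results of these data known. All 9 members are named, and genes of the wider list where they were called by total signal, of which those under 30 points are Rdh10 alone. In addition, 1 further result of this rule was left out of the text and the plot. The alternatives were 2500 bp either way from the TSS, a peak covering 50% of the promoter, leaving out the 20% lowest peaks, equal numbers of peaks (3477), genes marked in at least 1 library, limma without trend and robust, a replicate block, log2 signal centred on genes marked in all libraries, and each library left out. TSS of coding transcripts alone was chosen after seeing the data.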

Additional observations from a re-analysis of the deposited data

Results flagged for a closer look

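In Oct4+ replicate 3, the width of the Rxra promoter peak was 0 bp, since there was no peak, while the other 3 Oct4+ libraries had widths of 4387 to 4694 bp. A width of 0 stands for an absent peak, so this restates that the peak was missing and is no measurement of width. The gap took up 0.935 of the whole range of the 4 values, above Dixon's critical value. This library had 3477 peaks. Over the 12 sets of 4 values examined, chance flags about 1 in 20.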

How the results depend on the processing

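Over the 9 genes, the number called for total signal was 3 for Oct4+ against Pdgfra+, 2 for Oct4+ against DP and 0 for DP against Pdgfra+ nEnd. Leaving out 1 library gave 2 to 3, 1 to 3 and 0 to 1. For highest coverage the numbers were 1, 1 and 0, and leaving out 1 library gave 0 to 2, 0 to 2 and 0 to 0. For width they were 2, 1 and 1, and leaving out 1 library gave 0 to 3, 0 to 1 and 0 to 1; the first 2 include Cyp26a1, which has no width in Oct4+ nEnd, so that this restates its absence there. For peaks present in every library of one population and none of the other they were 1, 1 and 0, with 1 to 2, 1 to 1 and 0 to 1. With log2 signal, where Rara and Rarg alone could be tested, 1 was called for total signal in both Oct4+ comparisons. For DP against Pdgfra+ nEnd, total signal called 1 with equal numbers of peaks and 1 without the 20% lowest peaks. For highest coverage, equal numbers of peaks called 2 for Oct4+ against Pdgfra+, and limma without trend and robust called 2 for Oct4+ against Pdgfra+ and 2 for Oct4+ against DP. For the width of DP against Pdgfra+ peaks, equal numbers called 2 and limma without trend and robust called 0. The calls of Cyp26a1 against Oct4+ nEnd in these numbers restate its absent peak there. The cause of the changes was not tested.

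The replicate numbers did not pair the libraries, since correlations of deviations ran from -0.174 to 0.225. With a replicate block, the numbers called were 3, 1 and 0 for total signal, 1, 0 and 0 for highest coverage and 1, 0 and 0 for width. Calls not made under it were Dhrs3 in total signal (Oct4+ against DP, adjusted p = 0.0534), Rarg in highest coverage (Oct4+ against DP, 0.0724) and Rarg in width (DP against Pdgfra+, 0.0994). Cyp26a1 in width was not called either, in both Oct4+ comparisons, where its width in Oct4+ nEnd stands for an absent peak.

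The differences that changed sign were not called in those comparisons. Rara in total signal was 0.24 and 0.34 with log2 signal against Pdgfra+ and DP, and 0.022 with equal numbers against DP. Without the 20% lowest peaks, Rxra was 3.16 (total signal, Oct4+ against DP), 0.29 (highest coverage, DP against Pdgfra+) and -0.37 (width, Oct4+ against Pdgfra+). With equal numbers, Dhrs3 width was -1.84 (DP against Pdgfra+). Leaving out 1 library, Rxra in total signal ran from -1.81 to 13.5 (Oct4+ against Pdgfra+) and -11.5 to 3.38 (Oct4+ against DP), and in highest coverage from -2.76 to 7.41, -1.09 to 7.61 and -4.44 to 2.67 (DP against Pdgfra+). Rxra width ran from -1.01 to 2.10. For DP against Pdgfra+, Cyp26a1 ran from -9.31 to 1.83 in total signal and -18.8 to 7.95 in highest coverage, Dhrs3 from -18.1 to 4.29 and -14.7 to 3.58, and Rara from -3.76 to 0.55 in highest coverage.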
